A study of Poecilia reticulata with 6 samples.

Results

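The slc39 genes encode the ZIP transporters, membrane proteins that carry zinc and other divalent metals such as iron and manganese into the cytosol, either from outside the cell or out of organelles and vesicles. Most slc30 genes encode transporters of the opposite direction, which move zinc out of the cytosol. In the vertebrate intestine both families take part in the uptake of dietary zinc, and some ZIP proteins also carry manganese and iron. The slc39 genes were taken as all rows of the guppy (Poecilia reticulata) expression table whose gene name begins with slc39a in any letter case, which gave 9 of 10389 genes, and all 9 passed the filter on low values and were tested. They were slc39a4, slc39a6, slc39a7, slc39a8, slc39a9, slc39a10, slc39a13 and 2 rows of the same name, written SLC39A1 (ENSPREG00000014791) and slc39a1 (ENSPREG00000008271). The RefSeq gene table of the guppy (assembly Guppy_female_1.0+MT) holds each of the 8 distinct symbols, and slc39a1 once, so which of the 2 rows that gene is was not established. The genome build of the deposited values is not given in the sources used here, so no positions are given.

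Adult wild-type guppies were kept at 0‰ salt or brought to 18‰ or 35‰ by stepwise addition of salt, and RNA from the intestine was sequenced in 2 libraries at each salinity, 6 in all. Since 35‰ was reached through the lower steps, salinity and time of exposure cannot be told apart. The number of fish behind a library is not stated, so p-values measure the spread between these libraries, which may be technical. Values are TPM, the usual length-corrected measure of transcript abundance, which are scaled for transcript length and library size, so that levels of different genes can be set against each other.

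The listed genes summed to between 419412 and 481864 TPM in a library, so the table covers part of each. These totals rose with salinity without overlap, with 419412 and 427838 TPM at 0‰, 446532 and 459528 TPM at 18‰, and 481864 and 481529 TPM at 35‰. Between 1006 and 1275 genes were listed at 0. Read depth is unknown from TPM. The intestinal label was borne out by the enterocyte markers vill, which had 1372 to 2312 TPM, and cdh17, which had 912 to 2236 TPM over the 6 libraries, while the enterocyte marker alpi.1 had at most 0.06 TPM. Markers of other cells and tissues differed between libraries. Leukocyte markers (5 genes) summed to 682 TPM in 0‰ replicate 1 and to between 200 and 289 TPM in the other 5 libraries. Liver markers (7 genes) summed to 731 TPM in 0‰ replicate 2 and to between 40.8 and 75.5 TPM elsewhere. Exocrine pancreas markers (4 genes) summed to 10.3 and 94.0 TPM at 35‰, against 2824 to 11114 TPM in the 4 libraries at 0‰ and 18‰. Distal, lysosome-rich enterocyte markers (5 genes) summed to 89.9 and 553 TPM at 35‰, against 2383 to 3627 TPM in the other 4 libraries. In 35‰ replicate 1, 2 of them were listed at 0, and in 35‰ replicate 2 slc10a2 held 429 of the 553 TPM.

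Differences between salinities were tested for 7897 genes with limma on log2(TPM + 1), a scale that understates the fold change of low genes. Calls required a fold change above 1.5 together with an adjusted p (Benjamini-Hochberg) below 0.05. Of the 9 slc39 genes, limma called 0 in each of the 3 comparisons. Over all genes tested, limma called 0.190% in 35‰ versus 0‰, 0.0127% in 18‰ versus 0‰ and 0.317% in 35‰ versus 18‰. At an unadjusted p under 0.05, limma gave 3 of the 9 slc39 genes in 35‰ versus 0‰ (11.3% of all genes), 3 in 18‰ versus 0‰ (5.93% of all genes) and 2 in 35‰ versus 18‰ (12.5% of all genes). These were slc39a8, slc39a10 and slc39a1 in the first comparison, slc39a4, slc39a8 and slc39a10 in the second and both slc39a1 rows in the third. A moderated F test over the 3 salinities called 0.279% of all genes and 0 of the slc39 genes, of which 3 had an unadjusted p under 0.05 (11.5% of all genes).

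**Figure D1:**
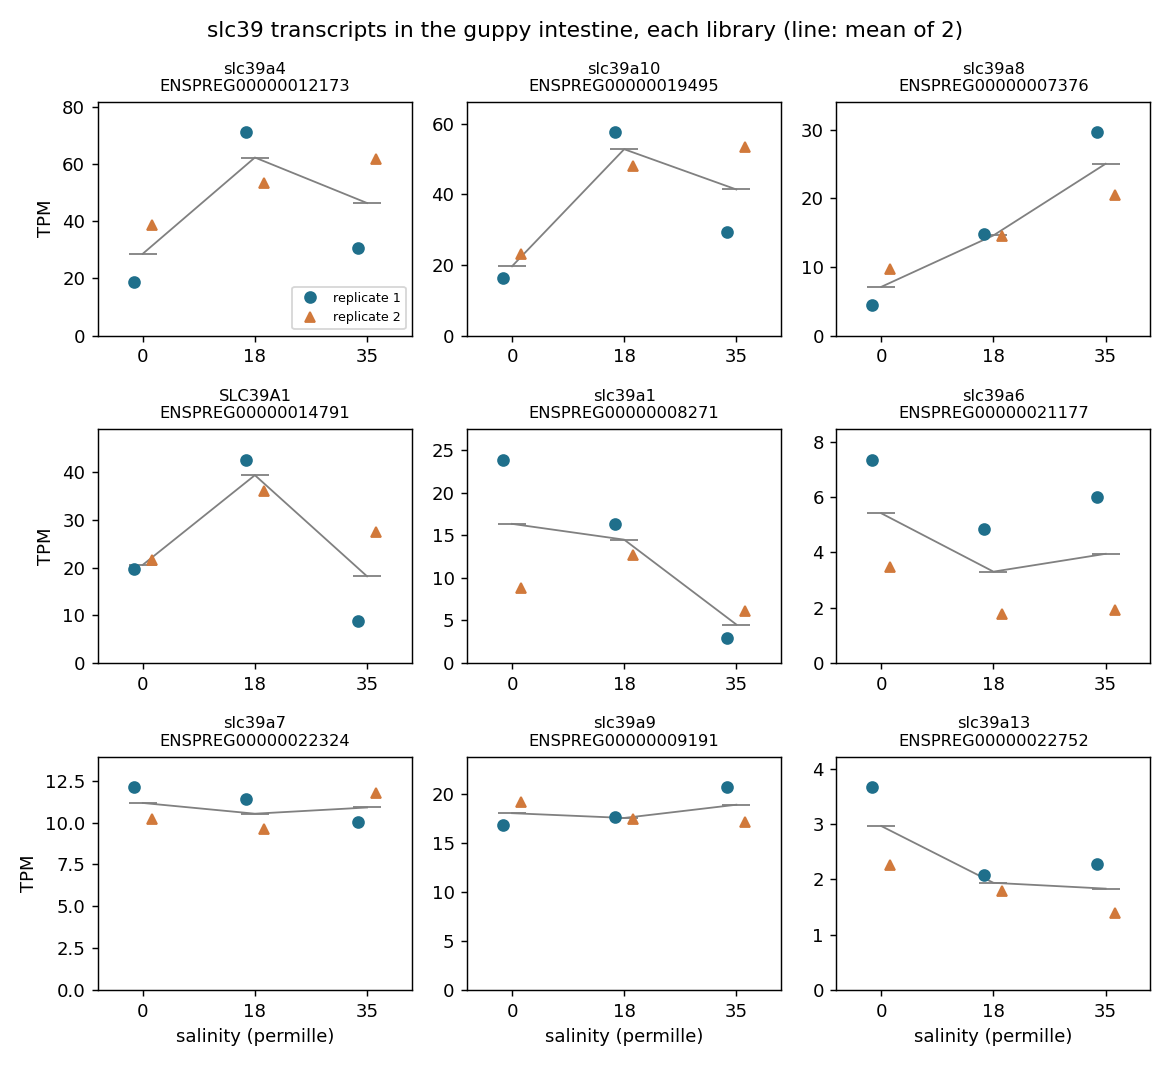
TPM of the 9 slc39 genes in each library (circle, replicate 1; triangle, replicate 2) at 0, 18 and 35 permille, with a line through the means of 2 libraries and a vertical axis of its own for each gene. In slc39a8 all 3 salinities are apart in the order 0, 18, 35, while slc39a7 and slc39a9 stay within 9.63 to 12.1 and 16.9 to 20.7 TPM.

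In level, slc39a4 was the most abundant slc39 transcript at each salinity by its mean. At 0‰ its mean of 28.6 ± 14.1 TPM (SD, n = 2) was followed by SLC39A1, slc39a10, slc39a9 and slc39a1 with means of 20.6, 19.6, 18.0 and 16.4 TPM, and each neighbouring pair in this order down to slc39a7 (11.2 ± 1.34 TPM) overlapped in its libraries. At 18‰ the first places were held by slc39a4 (62.2 ± 12.5 TPM), slc39a10 (52.8 ± 6.77 TPM) and SLC39A1 (39.4 ± 4.60 TPM). There slc39a4 and slc39a10 overlapped, and slc39a10, SLC39A1, slc39a9 and slc39a8 stood apart from one another. At 35‰ the order was slc39a4 (46.3 ± 22.0 TPM), slc39a10 (41.4 ± 17.0 TPM), slc39a8 (25.0 ± 6.48 TPM), slc39a9 (18.9 ± 2.55 TPM) and SLC39A1 (18.2 ± 13.1 TPM), and each of these neighbours overlapped in its libraries. By mean level slc39a8 ranked 7 of 9 at 0‰, 5 at 18‰ and 3 at 35‰, whereas slc39a1 ranked 5, 6 and 7. The least abundant were slc39a6 and slc39a13, with means of 5.41 and 2.97 TPM at 0‰, 3.30 and 1.94 TPM at 18‰, and 3.95 and 1.84 TPM at 35‰.

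**Figure D2:**
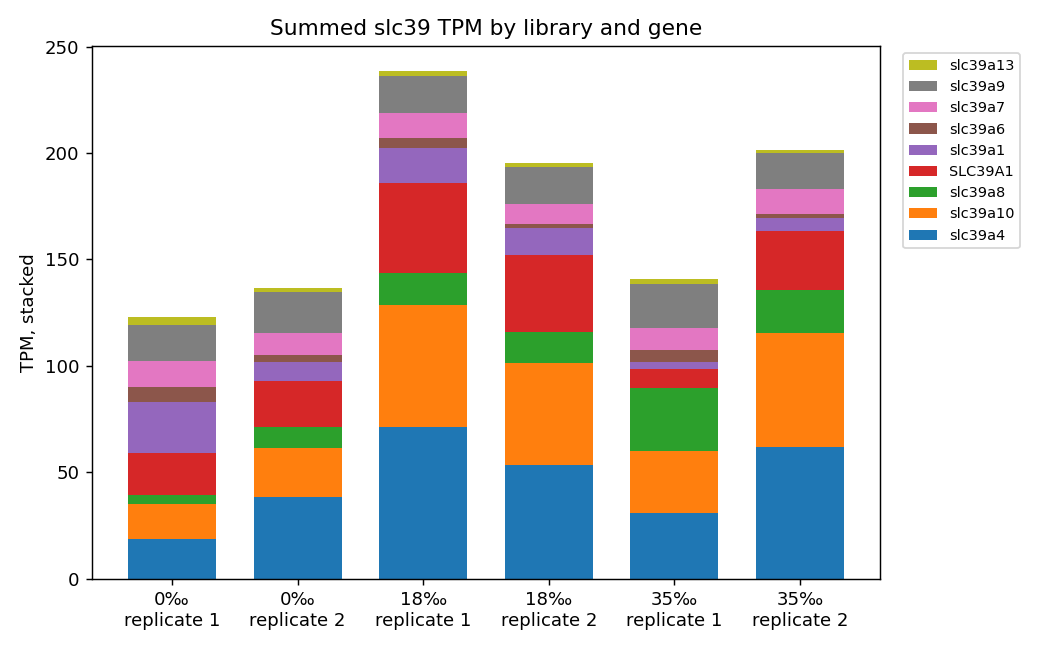
Stacked TPM of the 9 slc39 genes in each of the 6 libraries, with salinity and replicate on the horizontal axis and one colour for each gene. The stacks reach 123 and 137 TPM at 0‰ and 238 and 195 TPM at 18‰, and at 35‰ they reach 141 TPM in replicate 1 and 201 TPM in replicate 2.

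Summed over the 9 genes, slc39 transcripts came to 123 and 137 TPM at 0‰, 238 and 195 TPM at 18‰, and 141 and 201 TPM at 35‰. Both libraries at 18‰ and both at 35‰ lay above both at 0‰, and the libraries at 18‰ and 35‰ overlapped. The margin at 35‰ was that between 141 TPM in 35‰ replicate 1 and 137 TPM in 0‰ replicate 2. As a share of all TPM in the table, slc39 transcripts made up 0.0292% and 0.0418% at 35‰, against 0.0293% and 0.0320% at 0‰, so on this scale the 2 salinities overlapped. Both 18‰ libraries, at 0.0534% and 0.0425%, lay above both 0‰ libraries on this scale too. By exact permutation (two-sided, 2 libraries against 2), p for the summed TPM was 0.333 for 18‰ versus 0‰ and for 35‰ versus 0‰, which is the smallest p this design allows, and 0.667 for 35‰ versus 18‰. Per library, slc39a4 made up 15.2% to 30.7% of this sum and slc39a10 made up 13.2% to 26.5%. The share of slc39a8 was 3.63% and 7.12% in the 0‰ libraries, 6.19% and 7.39% in those at 18‰, and 21.1% and 10.1% in those at 35‰.

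The ZIP8 protein, encoded by slc39a8, sits in the plasma membrane of mammalian cells and takes up manganese, zinc, iron and also cadmium together with bicarbonate. The guppy slc39a8 gene (ENSPREG00000007376) had 4.46 and 9.73 TPM at 0‰, 14.8 and 14.4 TPM at 18‰, and 29.6 and 20.4 TPM at 35‰. No library of one salinity overlapped with one of another, in the order 0‰, 18‰, 35‰, a pattern that 2.17% of the genes tested shared and that no other slc39 gene had. The log2 fold change in 35‰ versus 0‰ was 1.74 (95% interval 0.89 to 2.59, adjusted p = 0.161 in limma). In 18‰ versus 0‰ it was 1.03 (95% interval 0.17 to 1.88, adjusted p = 0.744 in limma) and in 35‰ versus 18‰ it was 0.72 (95% interval −0.14 to 1.57, adjusted p = 0.458 in limma). The higher of the 2 values at 0‰ was in replicate 2, as it was for slc39a4, slc39a9, slc39a10 and SLC39A1. That was the library with the most liver marker signal. Without that library the log2 fold change of slc39a8 in 35‰ versus 0‰ was 2.23. Over all alternatives for this comparison the log2 fold change ran from 1.26 to 2.23, and with the same total TPM in each library it was 1.57. Muscle markers (8 genes) summed to 194 and 199 TPM at 35‰, against 98.7 and 130 TPM at 0‰, and to 230 and 149 TPM at 18‰. Of the 6 tested, 0 were called in 35‰ versus 0‰ (0.190% of all genes), and all 6 had a positive log2 fold change (median 0.98, against −0.01 over all genes). In 4 of the 6, both 35‰ libraries lay above both 0‰ libraries (18.9% of all genes). Of these 6, the skeletal muscle marker mylpfa (37.5 TPM there, at most 4.88 TPM elsewhere) and desma were highest in 35‰ replicate 1, as was slc39a8. The others were highest elsewhere, actc1a and cnn1b in 35‰ replicate 2 and desmb and tagln in 18‰ replicate 1. The part of liver and muscle tissue in the level of slc39a8 was not tested. At 35‰, slc39a8 was higher in replicate 1 than in replicate 2, as were slc39a6, slc39a9 and slc39a13. The other 5 slc39 genes were lower in replicate 1 (64.1% of all genes).

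Of the slc39 genes, slc39a4 is the one best known from the gut. In mammals the ZIP4 protein takes up dietary zinc at the apical membrane of enterocytes, and its loss causes the human zinc deficiency acrodermatitis enteropathica. The guppy slc39a4 gene (ENSPREG00000012173) had 18.6 and 38.5 TPM at 0‰, 71.0 and 53.4 TPM at 18‰, and 30.8 and 61.9 TPM at 35‰. Both 18‰ libraries lay above both 0‰ libraries, and the 35‰ libraries overlapped with those of each other salinity. The log2 fold change was 1.17 in 18‰ versus 0‰ (95% interval 0.13 to 2.21, adjusted p = 0.777 in limma) and 0.68 in 35‰ versus 0‰ (95% interval −0.36 to 1.72, adjusted p = 0.594 in limma). In 35‰ versus 18‰ it was −0.49 (95% interval −1.53 to 0.56, adjusted p = 0.679 in limma), and without 35‰ replicate 1 that difference was 0.006.

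ZIP10, the product of slc39a10, is a plasma membrane zinc importer that in mammals can pair with ZIP6. Here slc39a10 (ENSPREG00000019495) had 16.3 and 23.0 TPM at 0‰, 57.6 and 48.0 TPM at 18‰, and 29.4 and 53.4 TPM at 35‰. Both libraries at 0‰ lay below the other 4, as was the case for slc39a8 and for 7.81% of all genes tested. The log2 fold change was 1.40 in 18‰ versus 0‰ (95% interval 0.61 to 2.19, adjusted p = 0.532 in limma) and 0.999 in 35‰ versus 0‰ (95% interval 0.21 to 1.79, adjusted p = 0.338 in limma). The libraries at 35‰ and 18‰ overlapped, and their difference was −0.40 on the log2 scale (adjusted p = 0.654 in limma). Over the 6 libraries, which share salinity groups, the log2(TPM + 1) values of slc39a10 and slc39a4 had a Pearson's r of 0.946, the highest of any pair of slc39 genes. For slc39a10 and the partner gene slc39a6, r was −0.635.

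The enterocyte markers differed in the same direction as slc39a4 and slc39a10 at 18‰. The 8 markers summed to 9051 and 9831 TPM at 18‰, against 5094 and 7386 TPM at 0‰, and all 7 that were tested had a positive log2 fold change in 18‰ versus 0‰, with a median of 0.53 (0.07 over all genes). With the mean log2(TPM + 1) of these markers set equal in all libraries, an alternative chosen after seeing the data, the log2 fold changes in 18‰ versus 0‰ were 0.81 for slc39a10, 0.58 for slc39a4, 0.44 for slc39a8 and 0.31 for SLC39A1. That scaling lowers the log2 fold change of every gene in this comparison by the same amount, and it moved the median of all genes to −0.53. It therefore does not set these genes apart from others. The part of enterocytes in these levels was not tested, and in bulk tissue more cells of a type and more RNA per cell cannot be told apart.

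**Figure D3:**
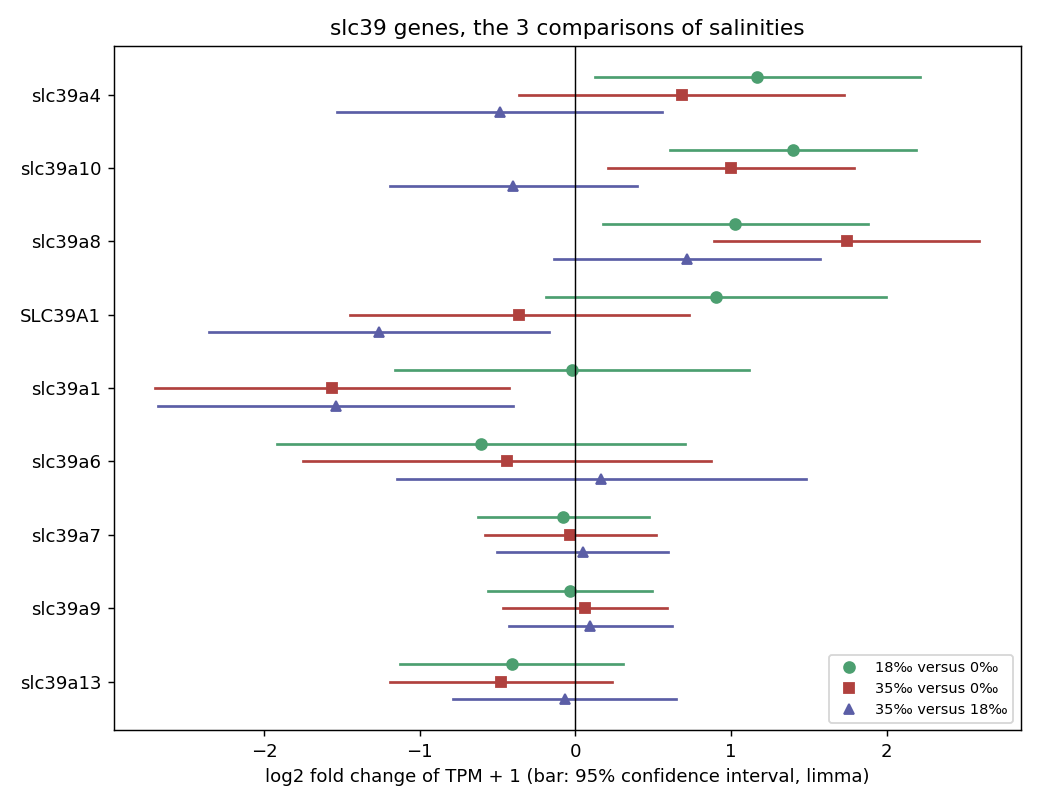
Log2 fold change of TPM + 1 of the 9 slc39 genes in 18‰ versus 0‰ (circle), 35‰ versus 0‰ (square) and 35‰ versus 18‰ (triangle), with 95% confidence intervals from limma that are not adjusted for the number of genes. The intervals of slc39a8 and slc39a10 lie above 0 in both comparisons with 0‰, and those of slc39a1 lie below 0 in both comparisons of 35‰.

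ZIP1, the product of slc39a1, is a widely expressed plasma membrane zinc importer in mammals. The 2 guppy rows of this name had different patterns. SLC39A1 (ENSPREG00000014791) had 19.6 and 21.5 TPM at 0‰, 42.6 and 36.1 TPM at 18‰, and 8.89 and 27.4 TPM at 35‰. Both 18‰ libraries lay above the other 4 (11.9% of all genes), and the 35‰ libraries stood on either side of the 0‰ libraries. The difference on the log2 scale was 0.90 in 18‰ versus 0‰ (95% interval −0.19 to 1.99, adjusted p = 0.928 in limma) and −1.26 in 35‰ versus 18‰ (95% interval −2.35 to −0.17, adjusted p = 0.344 in limma). In 35‰ versus 0‰ it was −0.36 (95% interval −1.45 to 0.73, adjusted p = 0.802 in limma), and without 35‰ replicate 1 it was 0.40.

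The row slc39a1 (ENSPREG00000008271) had 23.9 and 8.81 TPM at 0‰, 16.4 and 12.7 TPM at 18‰, and 2.96 and 6.07 TPM at 35‰. Both 35‰ libraries lay below the other 4 (14.2% of all genes), and the 18‰ libraries lay between the 2 libraries at 0‰. The log2 fold change was −1.56 in 35‰ versus 0‰ (95% interval −2.70 to −0.43, adjusted p = 0.312 in limma) and −1.54 in 35‰ versus 18‰ (95% interval −2.68 to −0.40, adjusted p = 0.282 in limma). In 18‰ versus 0‰ it was −0.02 (95% interval −1.16 to 1.12), and it was 0.65 without 0‰ replicate 1. That library had both the highest slc39a1 level and the most leukocyte marker signal, and without it the difference in 35‰ versus 0‰ was −0.89. The same library was also the highest for slc39a6 (7.35 TPM), slc39a7 (12.1 TPM) and slc39a13 (3.67 TPM). By summed TPM, the 35‰ libraries were also those with the least signal of the distal enterocyte and exocrine pancreas markers. Of these, limma called 4 of 5 and 2 of 4 lower in 35‰ versus 0‰, against 0.190% of all genes called in either direction. The distal marker not called, slc10a2, had 0 and 429 TPM at 35‰, on either side of its 226 and 176 TPM at 0‰. Goblet cell markers (3 genes, 0 called) summed to 162 and 245 TPM at 35‰, against 304 to 669 TPM in the other 4 libraries. For all 3 genes the 35‰ libraries lay below those at 0‰ (20.0% of all genes). The median log2 fold change of the 3 was −1.12 (−0.01 over all genes). The part of these cell types in the levels of slc39a1 was not tested.

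The TPM of SLC39A1 was 0.820 and 2.44 times that of slc39a1 at 0‰, 2.61 and 2.85 times at 18‰, and 3.00 and 4.52 times at 35‰. SLC39A1 was thus the more abundant in 5 of 6 libraries, the exception being 0‰ replicate 1. The log2 ratio averaged 1.88 ± 0.42 at 35‰ and 0.50 ± 1.11 at 0‰ (SD, n = 2 each), a difference of 1.38 (exact two-sided permutation test, p = 0.333, the smallest possible here). Without 0‰ replicate 1 that difference was 0.59, and without 0‰ replicate 2 it was 2.17. Summed, the 2 rows came to 43.5 and 30.3 TPM at 0‰, 59.0 and 48.8 TPM at 18‰, and 11.9 and 33.5 TPM at 35‰. Their sequences were not analysed here, so whether reads could be split between them is uncertain.

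A further 3 slc39 genes code for proteins that serve mainly inside the cell. ZIP7 releases zinc from the endoplasmic reticulum and Golgi, ZIP13 from vesicles and the Golgi, and ZIP9 acts at the Golgi and the cell surface in mammals. The slc39a7 gene (ENSPREG00000022324) had 12.1 and 10.2 TPM at 0‰, 11.4 and 9.63 TPM at 18‰, and 10.0 and 11.8 TPM at 35‰. The slc39a9 gene (ENSPREG00000009191) had 16.9 and 19.2 TPM at 0‰, 17.6 and 17.5 TPM at 18‰, and 20.7 and 17.1 TPM at 35‰. The highest library exceeded the lowest 1.26-fold for slc39a7 and 1.23-fold for slc39a9, against 8.08-fold for slc39a1, 6.64-fold for slc39a8, and between 2.64-fold and 4.80-fold for the other 5 genes. For slc39a7 the 95% interval of the log2 fold change in 35‰ versus 0‰ was −0.58 to 0.52, and for slc39a9 it was −0.46 to 0.59. With 2 libraries per salinity, these bounds give the differences compatible with the data and are not limits of detection. Larger differences in this comparison, 1.74 for slc39a8 and −1.56 for slc39a1, were not called either (adjusted p = 0.161 and 0.312 in limma).

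The slc39a13 gene (ENSPREG00000022752) had 3.67 and 2.26 TPM at 0‰, 2.09 and 1.79 TPM at 18‰, and 2.28 and 1.39 TPM at 35‰. Both 18‰ libraries lay below both 0‰ libraries (12.8% of all genes), with a log2 fold change of −0.41 (95% interval −1.13 to 0.31, adjusted p = 0.963 in limma). The slc39a6 gene (ENSPREG00000021177), whose zinc importer product is known in zebrafish for its part in cell movements of the gastrula, had 7.35 and 3.47 TPM at 0‰, 4.85 and 1.75 TPM at 18‰, and 5.99 and 1.90 TPM at 35‰. Its 2 libraries differed more within each salinity than the means did between salinities, and its log2 fold change in 35‰ versus 0‰ was −0.44 (95% interval −1.75 to 0.87). In both slc39a6 and slc39a13, replicate 1 was above replicate 2 at each salinity, as in 9.04% of all genes tested.

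Counted over the 9 genes, 4 had both 18‰ libraries above both 0‰ libraries (slc39a4, slc39a8, slc39a10 and SLC39A1; 24.7% of all genes) and 1 had both below. In 35‰ versus 0‰, 2 were above (slc39a8 and slc39a10; 18.9% of all genes) and 1 below (slc39a1; 20.0%). In 35‰ versus 18‰, 1 was above (slc39a8; 18.7%) and 2 below (both slc39a1 rows; 29.0%). The median log2 fold change over the 9 genes was −0.03 in 35‰ versus 0‰ (−0.01 over all genes), −0.02 in 18‰ versus 0‰ (0.07 over all genes) and −0.07 in 35‰ versus 18‰ (−0.07 over all genes).

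**Figure D4:**
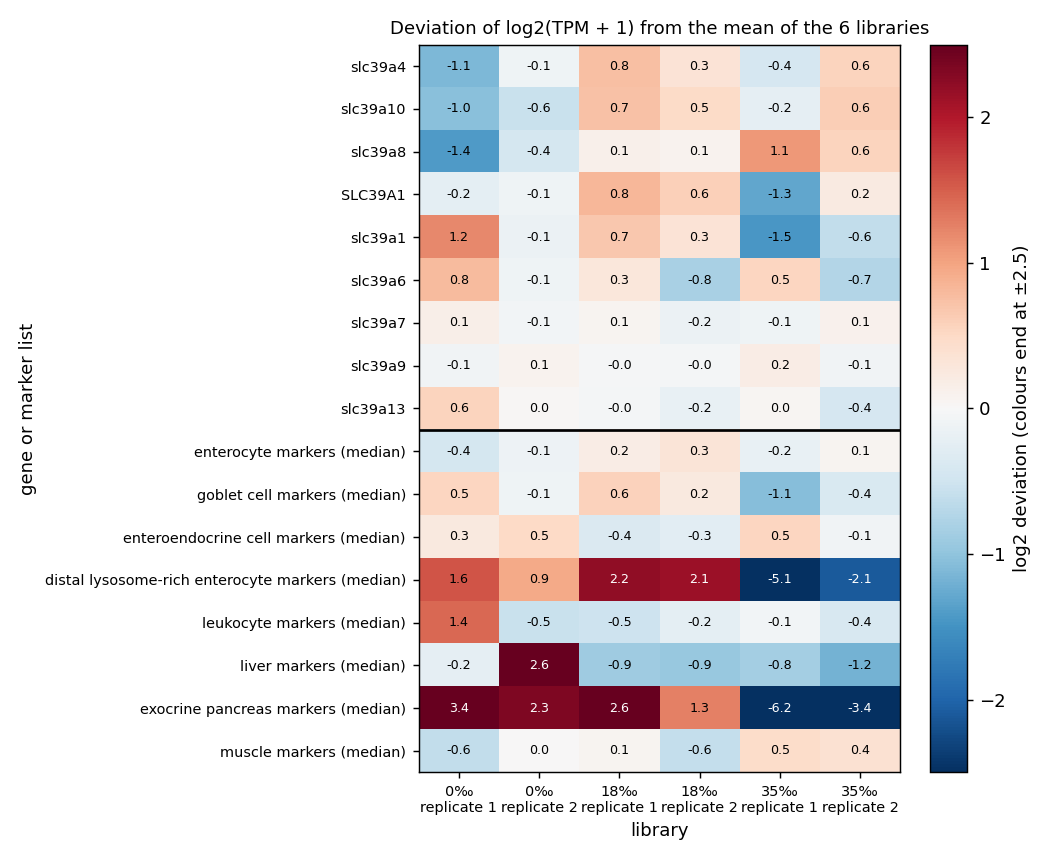
Deviation of log2(TPM + 1) from the mean of the 6 libraries for the 9 slc39 genes (upper rows) and, for 8 marker lists of cell types and tissues (lower rows), the median deviation of their tested genes, with 1 column for each library. The leukocyte list is highest in 0‰ replicate 1 (1.44), where slc39a1, slc39a6, slc39a7 and slc39a13 also have their highest values. The distal enterocyte list is lowest in 35‰ replicate 1 (−5.12), where slc39a1 and SLC39A1 have their lowest values.

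Genes of like pattern were sought only among tested genes that have a symbol. For each slc39 gene, the 3 with the highest Pearson's r over the 6 libraries were taken. The libraries share their salinity groups, and the values are a description. Between 10 and 75 of these genes exceeded an r of 0.95 with a given slc39 gene, so the top 3 are few among many. Closest to slc39a8 were jarid2b (r = 0.996), lrp4 (r = 0.991) and srsf5a (r = 0.990). The jarid2b gene had 19.5 and 31.0 TPM at 0‰, 36.8 and 39.8 TPM at 18‰, and 61.6 and 46.7 TPM at 35‰. Closest to slc39a10 were rin2 (r = 0.997), st3gal3b (r = 0.990) and the epithelial transcription factor gene ehf (r = 0.987), and ehf had 2.74 and 5.01 TPM at 0‰, 14.3 and 9.28 TPM at 18‰, and 6.40 and 11.8 TPM at 35‰. Closest to slc39a4 were kdm4aa (r = 0.998), DST (r = 0.991) and uacab (r = 0.989). The 2 slc39a1 rows had no gene in common among their top 3. For SLC39A1 these were jph1a (r = 0.999), add1 (r = 0.994) and plekhm1 (r = 0.993). The jph1a gene had only 0.46 to 1.06 TPM and passed the filter through its 18‰ libraries alone. For slc39a1 they were metap1d (r = 0.990, at 0.71 to 1.72 TPM), RILPL1 (r = 0.989) and glmp (r = 0.989). The glmp gene, for a glycosylated membrane protein of the lysosome, had 22.6 and 9.95 TPM at 0‰, 14.6 and 14.8 TPM at 18‰, and 4.41 and 8.51 TPM at 35‰. For the 4 other genes the highest r was 0.996 with med21 (slc39a13), 0.994 with clcn7 (slc39a7), 0.994 with nmt1a (slc39a6) and 0.986 with ADAP1 (slc39a9). Of these, clcn7 had only 0.93 to 1.41 TPM.

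Of the opposing family of zinc exporters, 3 slc30 genes were tested, and limma called 0 of them in each comparison, also with 0 at an unadjusted p under 0.05. The slc30a4 gene, whose product loads zinc into vesicles in mammals, had 63.7 and 55.7 TPM at 0‰, 74.7 and 51.7 TPM at 18‰, and 78.2 and 101.0 TPM at 35‰. The slc30a6 gene, for a Golgi zinc transporter, had 19.8 and 19.2 TPM at 0‰, 21.6 and 22.0 TPM at 18‰, and 26.2 and 28.1 TPM at 35‰. In both genes the 35‰ libraries lay above the other 4 (10.6% of all genes). Against 0‰ the log2 fold changes at 35‰ were 0.57 (SE 0.27, adjusted p = 0.474 in limma) for slc30a4 and 0.45 (SE 0.21, adjusted p = 0.468 in limma) for slc30a6. For slc30a9, which codes for a mitochondrial zinc transporter, the values were 9.16 and 9.53 TPM at 0‰, 8.67 and 12.7 TPM at 18‰, and 8.96 and 5.84 TPM at 35‰. Both 35‰ libraries of slc30a9 lay below both at 0‰ (20.0% of all genes). By level, slc30a4 exceeded each slc39 gene in 5 of 6 libraries, since slc39a4 reached 53.4 TPM in 18‰ replicate 2, where slc30a4 had 51.7 TPM. No gene was listed under the symbols searched for metallothioneins and the zinc sensor MTF, so these were not analysed here.

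Genes for other metals were taken from lists of iron handling (20 tested) and of copper and manganese handling (9 tested). Limma called 0 of either list in each comparison (0.0127% to 0.317% of all genes). At an unadjusted p under 0.05, the iron list had 2 genes in 35‰ versus 0‰ (11.3% of all genes), 0 of the 20 tested in 18‰ versus 0‰ (5.93%), and 4 in 35‰ versus 18‰ (12.5%). The copper and manganese list had 0 in each of the 3 comparisons. The transferrin receptor gene tfr1b, for the uptake of iron from plasma, had 12.5 and 16.3 TPM at 35‰, against 7.03 and 5.81 TPM at 0‰, a log2 fold change of 1.05 (SE 0.25, adjusted p = 0.213 in limma). For hmox1a, the enzyme that breaks down heme, the values were 2.33 and 1.99 TPM at 35‰ and 7.51 and 3.08 TPM at 0‰ (−0.90 on the log2 scale, adjusted p = 0.416 in limma). The heme exporter gene flvcr1 had 1.01 and 1.29 TPM at 35‰, against 5.06 and 1.64 TPM at 0‰ (log2 fold change −0.90). In both, 0‰ replicate 1 was the highest library. In the copper and manganese list the largest differences in 35‰ versus 0‰ were −0.73 for commd1, 0.53 for the Golgi calcium and manganese pump gene atp2c1 and −0.50 for tmem165, a Golgi membrane protein gene. The median log2 fold change in 35‰ versus 0‰ was −0.15 over the iron list and 0.00 over the copper and manganese list, against −0.01 over all genes. Neither direction was stable. Over the alternatives the iron median ran from −0.35 with enterocyte markers set equal to 0.08 with a filter at a mean of 5 TPM, and the copper and manganese median from −0.20 with enterocyte markers set equal to 0.20 without 35‰ replicate 1.

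Many brush border enzymes hold zinc at their active site, among them alkaline phosphatases, meprins, aminopeptidases and carbonic anhydrases. Of 16 such genes tested, limma called 0 in each comparison (0.0127% to 0.317% of all genes). At an unadjusted p under 0.05 there were 4 in 35‰ versus 0‰ (11.3% of all genes), 9 in 18‰ versus 0‰ (5.93%) and 7 in 35‰ versus 18‰ (12.5%). In 18‰ versus 0‰, 10 of the 16 had both 18‰ libraries above both 0‰ libraries (24.7% of all genes), and 2 had both below (12.8%). These 2 were ca4b and alpl, with log2 fold changes of −1.91 and −1.40, and both were among the 9. The median log2 fold change over the 16 was 0.75 (0.07 over all genes). In 35‰ versus 18‰, 10 of the 16 had both 35‰ libraries below both 18‰ libraries (29.0% of all genes), and 2 had both above (18.7%). The median in this comparison was −0.46 (−0.07 over all genes). The list shares anpepb and alpi.2 with the enterocyte markers, whose direction was the same at 18‰. With the enterocyte markers set equal, the median of the list was 0.16 in 18‰ versus 0‰ (−0.53 over all genes) and −0.07 in 35‰ versus 18‰ (0.32 over all genes). The largest differences in 35‰ versus 0‰ were −2.15 for the membrane carbonic anhydrase gene ca4b (31.0 and 8.23 TPM at 35‰, against 52.4 and 108 TPM at 0‰), 1.28 for the alkaline phosphatase gene alp3 (912 and 1198 TPM at 35‰, against 290 and 635 TPM at 0‰) and −1.15 for the dipeptidase gene dpep1 (207 and 854 TPM at 35‰, against 887 and 981 TPM at 0‰). Their adjusted p in limma was 0.300, 0.296 and 0.497. As in slc39a4, slc39a7, slc39a10 and both slc39a1 rows, the dpep1 level at 35‰ was lower in replicate 1 than in replicate 2. This held for 64.1% of all genes tested.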

How the data were processed

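RNA of guppy intestine was sequenced by the authors as 100-bp paired-end reads, aligned to the guppy genome with STAR and quantified with StringTie (versions and genome build not given in the sources used here). The deposited values are TPM, scaled by the authors for transcript length and library size, and were used as deposited. The authors used DESeq2, which needs counts, so its cutoffs (fold change above 1.5, false discovery rate under 0.05) were applied to limma 3.58.1 in R 4.3.3.

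Genes with at least 1 TPM in at least 2 libraries were kept, 1 was added before log2, and 1 fit with a mean-variance trend over the 6 libraries gave all comparisons, with Benjamini-Hochberg adjustment over 7897 genes. TPM keep no depth, so precision rests on 2 libraries per salinity. The procedure was also run on simulated data with independent normal noise of the fitted spread. Shifts shared by many genes of a library, such as those of the marker lists, were not simulated.

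The genes and lists were chosen with earlier results of these data known. All slc39 and slc30 genes were named, and from each other metal or enzyme list the called genes and the 3 with the largest difference in 35‰ versus 0‰. Figures were drawn with matplotlib 3.10.9. Alternatives covered pseudocount, filter, trend, scaling, the libraries fitted, a replicate block and omission of each library.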

Additional observations from a re-analysis of the deposited data

How the results depend on the processing

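No slc39 gene was called in 18‰ versus 0‰ or in 35‰ versus 18‰ under any of the alternatives, and in 35‰ versus 0‰ the count was 0 to 1 when single libraries were left out. Counts over all genes depended more on the setting. Without a filter, limma called 1 gene in 35‰ versus 0‰ (15 as reported), 4 in 35‰ versus 18‰ (25) and 2 by the F test (22). With a mean TPM of at least 5 it called 24 in 35‰ versus 0‰ and 0 in 18‰ versus 0‰ (1), where 311 had an unadjusted p under 0.05. Median-ratio scaling gave 0 in 18‰ versus 0‰ (484 unadjusted) and 13 by the F test, and the same total TPM gave 25 in 35‰ versus 0‰. With enterocyte markers set equal, the counts were 41 in 35‰ versus 0‰, 0 in 18‰ versus 0‰ (1423 unadjusted) and 38 by the F test. With only the 4 libraries compared, they were 0 in 18‰ versus 0‰ (587 unadjusted) and 41 in 35‰ versus 18‰. With each library left out in turn, limma called 3 to 89 genes in 35‰ versus 0‰, 0 to 11 in 18‰ versus 0‰, 3 to 45 in 35‰ versus 18‰ and 2 to 51 by the F test. The lowest and highest counts in 35‰ versus 0‰ were those without 35‰ replicate 1 and without 0‰ replicate 2. The cause of these changes was not tested.

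No source ties a replicate number to a fish, tank or day, and the differences between replicates 1 and 2 correlated across genes between salinities at r = 0.06, −0.04 and 0.05. A replicate block gave 0 calls in 18‰ versus 0‰ (507 unadjusted) and 14 by the F test, and no slc39 gene was called.

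The direction of some small differences turned. In 35‰ versus 0‰, slc39a9 stood at −0.12 with the same total TPM and at −0.14 with enterocyte markers set equal. In 35‰ versus 18‰, slc39a7 stood at −0.035 with the same total TPM and slc39a13 at 0.32 with enterocyte markers set equal. These 2 scalings moved the median of all genes in 35‰ versus 0‰ to −0.16 and −0.21. When single libraries were left out, differences on the log2 scale in 35‰ versus 0‰ ran from −0.145 to 0.081 for slc39a7, −1.08 to 0.19 for slc39a6, −1.12 to 0.40 for SLC39A1 and −0.07 to 0.19 for slc39a9. In 18‰ versus 0‰ they ran from −0.19 to 0.035 for slc39a7, −0.12 to 0.054 for slc39a9 and −0.70 to 0.65 for slc39a1. In 35‰ versus 18‰ they ran from −0.30 to 0.16 for slc39a13, −0.067 to 0.16 for slc39a7, −0.47 to 0.80 for slc39a6, −0.82 to 0.021 for slc39a10, −0.98 to 0.006 for slc39a4 and −0.036 to 0.23 for slc39a9. Differences in the log2 ratio of SLC39A1 to slc39a1 ran from 0.59 to 2.17 in 35‰ versus 0‰, 0.16 to 1.74 in 18‰ versus 0‰ and 0.14 to 0.73 in 35‰ versus 18‰. The directions of slc39a8, and of slc39a10, slc39a4 and slc39a13 against 0‰, were the same under every alternative that tested them. The same held for slc39a1 in both comparisons of 35‰, for SLC39A1 in both comparisons of 18‰ and for slc39a6 in 18‰ versus 0‰. A mean of at least 5 TPM left slc39a6 and slc39a13 untested. Alternatives that leave 1 library at a salinity assume that it varies like the others.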

Other observations

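Of the 2 rows named for slc11a2, which codes for the divalent metal transporter that takes up iron and other metals in the mammalian gut, SLC11A2 (ENSPREG00000013605) had 12.7 and 9.63 TPM at 35‰, against 18.4 and 21.7 TPM at 18‰, and slc11a2 (ENSPREG00000019914) had 1.27 and 2.70 TPM at 35‰, against 4.10 and 4.02 TPM at 18‰. Both were lower in both 35‰ libraries (29.0% of all genes), with log2 fold changes of −0.80 and −0.80 (adjusted p = 0.271 and 0.367 in limma). In the same comparison slc39a8, which also carries iron and manganese in mammals, stood at 0.72. At 0‰, SLC11A2 had 15.7 and 18.1 TPM and slc11a2 had 2.67 and 2.06 TPM, which overlapped with its 35‰ libraries. Against 0‰ the log2 fold changes at 35‰ were −0.56 and −0.21 (adjusted p = 0.445 and 0.833 in limma). The slc11a2 rows were chosen after their values were seen, and the difference between them and slc39a8 was not tested.

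The ceruloplasmin gene cp, for a copper enzyme made mainly by the liver and also chosen after its values were seen, was below the filter and had 32.4 TPM in 0‰ replicate 2 and 0.09 to 0.54 TPM in the other 5 libraries.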
